A study of Mus musculus with 16 samples.

Results

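The Nr2f1 and Nr2f2 loci of the newborn mouse cochlea were described by the chromatin loops listed around the start sites of both genes. A loop was taken when at least 1 of its 2 anchors, each a bin of 10 kb, lay within 2 Mb of the 5′ end of either gene in GENCODE vM21 on the mm10 build. This gave 16 of the 6798 listed loops, 4 at Nr2f1 and 12 at Nr2f2. Chromatin contacts were measured by Micro-C, in which micrococcal nuclease cuts chromatin between nucleosomes and ligation joins fragments that were close together in the nucleus. The samples were whole cochleae of C57Bl/6 mice at postnatal day 0 by the sample labels (day 0 or 1 in the text of the study), in 4 Micro-C libraries, and no treatment or mutant was compared. In the study, Replicates 1 to 3 are biological and Replicate 4 is technical, although its supplement calls all of them biological. The list was called on all 4 libraries merged, so it gives no spread between replicates, and the read depth behind a loop is unknown here. Contact values that the study gives for single replicates were not used here. The tissue was bulk, so a loop could not be assigned to a cell type, and a strong loop in few cells and a weak loop in many could not be told apart.

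Nr2f1 and Nr2f2 encode the COUP transcription factors I and II, orphan members of the nuclear receptor family that bind DNA as dimers and regulate cell fate in many developing organs. Loss of Nr2f1 in mice disturbs the growth of the cochlear duct and the number of hair cells, while Nr2f2 is best known for its roles in veins, atria and lymphatic vessels. A chromatin loop brings distant stretches of a chromosome together, either by cohesin halting at sites of the zinc finger protein CTCF or by contact between a promoter and a distal enhancer.

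Both genes lay on the minus strand, so that rising coordinates lead upstream of each gene. Nr2f1 (ENSMUSG00000069171.14) occupied chr13:78188973-78199757 and Nr2f2 (ENSMUSG00000030551.14) occupied chr7:70351944-70366735. Nr2f1 was touched by 1 loop, meaning that an anchor bin overlapped the gene body, and Nr2f2 by 2. Among 21755 protein-coding genes, 24.1% were touched by a listed loop and 7.1% had an anchor in the bin of the start site, as both genes did with 1 loop each. At least 2 touching loops, the Nr2f2 count, were found at 8.34% of genes. With bins widened by 10 kb on each side, Nr2f1 was touched by 2 loops and Nr2f2 by 4. A loop spanned a start site when the site lay between its anchor bins. No loop spanned the start site of Nr2f1 and 1 loop spanned that of Nr2f2, where 35.3% of protein-coding genes were spanned. With the anchor bins themselves included, the counts were 1 and 2. The density of loops within 2 Mb also differed. The 4 loops within 2 Mb of Nr2f1 were a count reached or exceeded at 89.2% of protein-coding genes, whereas the 12 loops at Nr2f2 equalled the median gene, also at 12.

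**Figure D1:**
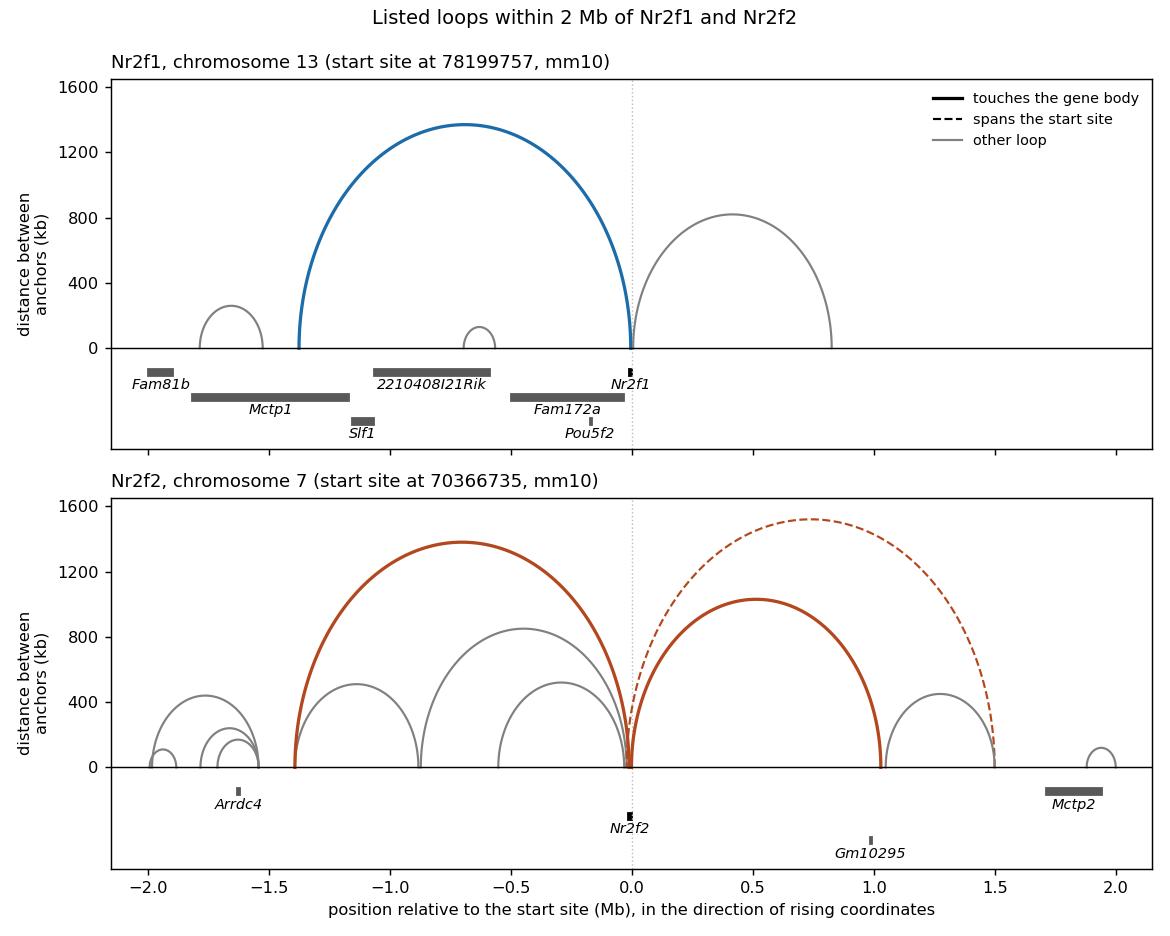
Arcs join the anchors of the 4 listed loops at Nr2f1 and the 12 at Nr2f2, with position relative to the start site in Mb on the horizontal axis and the distance between anchors in kb as the height of each arc. Bars mark the protein-coding genes whose start site lies within 2 Mb; a loop of 1370 kb reaches downstream from Nr2f1 and one of 1380 kb from Nr2f2.

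The loop that touched Nr2f1 was also the longest of its locus. It joined chr13:76820001-76830000 to chr13:78190001-78200000 over 1370 kb, with a false discovery rate (FDR, the q-value of the loop caller) of 0.00313. The near anchor held the start site and all or part of each of the 3 exons of the longest Nr2f1 transcript. The far anchor lay inside Mctp1, which encodes a membrane protein with several C2 domains, and covered exons 11 to 15 of a Mctp1 transcript of 21 exons, together with intronic sequence. A lower FDR was found for 32.6% of the whole list and for 15.5% of the 258 loops within 20% of the same distance. The FDR describes how surely a loop was called and is not a contact strength.

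The next bin upstream held the anchor of another loop. It ran from chr13:78200001-78210000 to chr13:79020001-79030000, over 820 kb, with an FDR of 0.0335. Its near anchor began 244 bp beyond the start site of Nr2f1, so by the bin boundary it neither touched nor spanned the gene. This near anchor lay in the noncoding gene A830082K12Rik, which starts inside Nr2f1 on the opposite strand, 1740 bp downstream of the Nr2f1 start site. The far anchor held no annotated gene, and its nearest protein-coding gene body was Nr2f1 itself. Nr2f1 thus had a listed loop leaving on each side of its start site, and the start site lay 243 bp from the bin boundary between the anchors.

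The remaining loops at Nr2f1 lay on the downstream side and did not reach the gene. The one with the lowest FDR of the locus, 0.0006, joined chr13:76410001-76420000 to chr13:76670001-76680000 over 260 kb, with both anchors in introns of Mctp1. The shortest, 130 kb, joined chr13:77500001-77510000, in an intron of 2210408I21Rik, to chr13:77630001-77640000, which held no gene. Its FDR of 0.0862 was the highest of the locus, and 95.4% of listed loops had a lower one. This loop lay inside the interval of the Mctp1 to Nr2f1 loop and made the single nested pair of the locus, which was absent with the FDR held below 0.05. At least 1 pair was found at 88.3% of protein-coding genes, and at 78.1% of the 690 genes that also had 4 loops within 2 Mb.

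At Nr2f2 the longest loop to touch the gene had nearly the same span as at Nr2f1. It joined chr7:68970001-68980000 to chr7:70350001-70360000 over 1380 kb, downstream of the gene, with an FDR of 0.00179. The far anchor held no annotated gene of any biotype, and the nearest protein-coding gene, Arrdc4, lay 221 kb away. Touching loops of this length were uncommon in the list. Among the 5237 protein-coding genes touched by any loop, the longest such loop had a median of 250 kb, and it reached 1370 kb, the Nr2f1 value, at 98 genes (1.87%) and 1380 kb, the Nr2f2 value, at 96 (1.83%).

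The start site of Nr2f2 itself was joined in the upstream direction. This loop ran from chr7:70360001-70370000 to chr7:71390001-71400000 over 1030 kb, and its FDR of 0.000115 was the lowest of the locus. In the whole list 8.03% of loops had a lower FDR, and 1.04% of the 481 loops of similar distance. The far anchor lay in the noncoding gene Gm29295 and 38.5 kb beyond Gm10295, the next protein-coding gene upstream. The loop that spanned the start site, the longest of the locus, joined chr7:70340001-70350000 to chr7:71860001-71870000 over 1520 kb with an FDR of 0.0164. Its near anchor ended 1944 bp short of the 3′ end of Nr2f2, and its far anchor was intergenic, 208 kb from Mctp2. A length of 1520 kb or more was found for 1.35% of the list.

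Anchors were packed around Nr2f2. The adjoining bins between chr7:70330001 and chr7:70370000, 4 in number, held anchors of 5 loops, of which 3 led downstream over 520, 850 and 1380 kb and 2 led upstream over 1030 and 1520 kb. The 850 kb loop, from chr7:69490001-69500000, had an FDR of 0.000148, and 2.44% of the 657 loops of similar distance had a lower one. An anchor within 50 kb of the start site, a window chosen after the values were seen, was found for 5 loops at Nr2f2 and 2 at Nr2f1. Counts at least as high were found at 124 (0.57%) and 4075 (18.7%) of the protein-coding genes, and the highest count at any gene was 8. With windows of 30 and 100 kb the counts were again 5 and 2, but the shares of genes moved. At Nr2f2 the share was 0.28% with 30 kb and 2.09% with 100 kb, and at Nr2f1 11.3% and 35.5%.

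Long loops were a larger share at both loci than in the list. A span of 800 kb or more was found for 2 of 4 loops at Nr2f1 and 4 of 12 at Nr2f2, against 11.2% of all loops. The median distance was 540 kb at Nr2f1, 480 kb at Nr2f2 and 280 kb over the list. An FDR below 0.05 was found for 3 of 4 and 12 of 12 loops, against 78.8% of the list. The 95% Wilson intervals, 30.1 to 95.4% at Nr2f1 and 75.8 to 100% at Nr2f2, both included the share of the list. The loops were too few for a higher share to show. Even 12 of 12, the highest count possible, had a lower limit below the share of the list. The median FDR was 0.0183 at Nr2f1, 0.00611 at Nr2f2 and 0.0113 over the list. Mustache detects loops at several blurring scales, and 4 of 4 and 9 of 12 loops came from the smallest scale, against 71.7% of the list. At Nr2f2 the other 3 loops shared the anchor chr7:68820001-68830000.

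Pairs in which one loop lay within the outer ends of another numbered 9 at Nr2f2, against a median of 6 over all protein-coding genes. At least 9 were found at 34.2% of genes, and at 26.2% of the 1277 genes that also had 12 loops within 2 Mb. The 9 pairs were formed by 7 inner and 5 outer loops, and the longest chain held 3 loops. The chain nearest the gene placed the 520 kb loop inside the 850 kb loop and that inside the 1380 kb loop, all ending in neighbouring bins at or just downstream of Nr2f2. Upstream, the 1030 kb loop of the start site lay inside the 1520 kb loop, as did a loop of 450 kb that shared its far anchor. The 1030 kb and 450 kb loops had anchors with 1 bin between them, at chr7:71390001-71400000 and chr7:71410001-71420000. The third group lay around Arrdc4, where loops of 170, 240 and 440 kb shared their right anchor. With shared anchors not allowed, 4 nested pairs were counted, and with the FDR held below 0.01, 3. The shortest loop of the locus, 110 kb, joined chr7:68370001-68380000 to chr7:68480001-68490000 and was in no nested pair; its FDR was 0.00287.

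Loops lay close to the edge of the 2 Mb window at Nr2f2. The loop farthest inside had its nearer anchor 1.88 Mb from the start site, at 110 kb span and an FDR of 0.00287, while the first loop outside lay at 2.02 Mb, with 550 kb and an FDR of 0.000177. On the upstream side the first loop outside lay at 2.03 Mb, with 980 kb and an FDR of 0.00104. At Nr2f1 the corresponding distances were 1.52 Mb inside, for the 260 kb loop, and 2.4 Mb outside, for a loop of 560 kb with an FDR of 0.000567. Windows of 1 and 3 Mb held 3 and 9 loops at Nr2f1, and 6 and 22 at Nr2f2.

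Both genes stood in stretches with few protein-coding genes, Nr2f1 on its upstream side and Nr2f2 on both sides. Within 2 Mb there were 6 other protein-coding start sites at Nr2f1, every one downstream, and 3 at Nr2f2, against a median of 53 over all protein-coding genes. Counts this low or lower were found at 1.09% and 0.405% of genes. The flank upstream of Nr2f1, up to Arrdc3, was 2.68 Mb long, while Fam172a lay 22.7 kb downstream. Nr2f2 had 1.6 Mb downstream to Arrdc4 and 982 kb upstream to Gm10295. A narrower flank of at least that length was found at 39 protein-coding genes, 0.179% of them.

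The upstream flank of Nr2f1 held 4 anchor bins from 4 loops over its whole length, or 1.49 bins per Mb; 2 of these bins, both of the 820 kb loop, belonged to loops within 2 Mb of the start site. For comparison, the whole list had 4.62 anchor bins per Mb of sequenced bins. The downstream flank of Nr2f2 held 7 anchor bins from 8 loops, of which 3 lay wholly inside it, and its 4.37 bins per Mb were near the rate of the list. The upstream flank of Nr2f2 held no whole anchor bin, and the loops of 1030 and 1520 kb passed over it. It was not empty of annotation, with 11 long intergenic noncoding RNA genes. At Nr2f2, 9 of 12 loops (75%, 95% Wilson interval 46.8 to 91.1%) had no protein-coding gene body at either anchor, against 18.3% of the list. At Nr2f1 this was 1 of 4 (25%, interval 4.56 to 69.9%). These intervals cover counting error only, and loops that share anchors are not independent. The list was not matched for gene density. A trait of the Nr2f2 loops therefore could not be told apart from the few protein-coding genes around them. With gene bodies of every biotype, the Nr2f2 share fell to 25% and the Nr2f1 share to 0%, and that of the list to 9.99%.

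No protein-coding start site lay in either anchor of 3 of 4 loops at Nr2f1 (75%, 95% Wilson interval 30.1 to 95.4%) and 11 of 12 at Nr2f2 (91.7%, interval 64.6 to 98.5%). Over the list this held for 78.1%, which lies within both intervals. The intervals could not show a higher share at Nr2f2, since even 12 of 12 loops would have a lower limit of 75.8%. With 4 loops the interval at Nr2f1 was wide. The only start sites found were those of Nr2f1 and Nr2f2 themselves. No loop of either locus had a start site at both anchors, as 100 loops of the list had. With start sites of every biotype, 7 of 12 loops at Nr2f2 were without one, against 61.3% of the list. With the 5′ ends of every transcript of protein-coding genes 10 of 12 were, against 61.9%, since a shorter protein-coding transcript of Nr2f2 starts in the near bin of the 1380 kb loop. The noncoding genes given by name were chosen after their positions were seen. They include Gm29683, which starts in the bin chr7:70330001-70340000, and Gm38584 and 4930402F11Rik, which both start in chr7:69490001-69500000. Nr2f2, like Nr2f1, overlaps an opposite-strand noncoding gene at its 5′ end, B130024G19Rik, which starts 1825 bp downstream of the Nr2f2 start site.

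The RefSeq annotation placed 2 enhancers tested in mouse embryos within 2 Mb of Nr2f1 and none within 2 Mb of Nr2f2. The element mm1556, active in hindbrain and forebrain, lay at chr13:76809879-76811879 in an intron of Mctp1, 8.12 kb outside the far anchor of the 1370 kb loop. The element mm881, active in forebrain and facial mesenchyme, lay at chr13:77546465-77549738 in an intron of 2210408I21Rik, between the anchors of the 130 kb loop and also of the 1370 kb loop. No anchor bin overlapped either element. Activity in the cochlea was not among these annotations.

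The CTCF consensus of 14 letters, was searched on both strands with at most 1 mismatch. It matched 1 of 8 anchor bins at Nr2f1 (12.5%, 95% Wilson interval 2.24 to 47.1%) and 13 of 19 at Nr2f2 (68.4%, interval 46 to 84.6%); the intervals overlapped and the difference was not tested. Over the list, 48.5% of 11828 anchor bins matched, and 21.4% of all bins of the genome with at most 10% unknown bases. The shares at Nr2f1 and Nr2f2 were 0% and 26.3% with no mismatch, against 13.6% of all anchor bins. With 2 mismatches they were 75% and 100%, against 93.7%. Where both anchors of a loop had a match on 1 strand, the pair could be given an orientation. This held for no loop at Nr2f1 and for 5 at Nr2f2, of which 3 pointed towards each other and 2 pointed the same way. None of these 5 touched or spanned Nr2f2, and the loops that did could not be given an orientation. Over the list 68.3% of 1507 loops with an orientation pointed towards each other. A match is a description of the letters and not a measured CTCF site. Median GC content was 38.5% in the anchor bins of Nr2f1 and 42.1% in those of Nr2f2, against 44.1% over all anchor bins.

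The matches in the anchors nearest both genes, and in the far anchors of the 1380 kb and 1520 kb Nr2f2 loops, are shown because these bins hold the anchors packed around the genes and the ends of the loops that touch or span them. Each is read 5′ to 3′ on the strand of the match in the GRCm38 assembly, the one called mm10. The 14 letters of the match, mismatches included, are in capitals. In the 78200001 bin beside Nr2f1 the match lay 1.98 kb upstream of the start site, in an intron of A830082K12Rik. In the start-site bin of Nr2f2 it lay 1.7 kb downstream of the start site, in an intron of Nr2f2 and an exon of B130024G19Rik. The bins at both ends of the 1370 kb Nr2f1 loop had no match, nor did the Nr2f2 bins from 70340001 to 70360000. The far anchors of the 1030 kb Nr2f2 loop and of the 820 kb Nr2f1 loop had none either.
Nr2f1, chr13:78201730-78201759, minus strand, 1 mismatch: gctcccgtCCGCTAGGTGGCAGgccgacct
Nr2f2, chr7:70365014-70365043, minus strand, 1 mismatch: ggactcttACACTAGGGGGCAGacagatac
Nr2f2, chr7:70330744-70330773, minus strand, 1 mismatch: gtgagggtCCAGGAGGTGGCAGggcccaaa
Nr2f2, chr7:70331748-70331777, minus strand, 1 mismatch: gtgggggcCCAGTAGGTGGGAGatcagaat
Nr2f2, chr7:68977284-68977313, plus strand, 0 mismatches: agcctaagCCAGTAGATGGCAGtaagatac
Nr2f2, chr7:71867286-71867315, minus strand, 0 mismatches: cttcaagcCCAGTAGAGGGCAGtcaagttc

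The promoters are given because each lay in an anchor of a listed loop. RefSeq (GRCm38.p6) has 2 promoters of Nr2f1 and 1 of Nr2f2 among 32851, each from 250 bases before to 50 bases after a start. The Nr2f1 promoter closest to the GENCODE start site, 884 bp downstream of it, had a GC content of 68% and 23 CpG dinucleotides, and 87.4% of promoters had a lower GC content. The other Nr2f1 promoter, 3308 bp downstream, had 43% and 4. The Nr2f2 promoter, whose start lay 11 bp from the GENCODE one, had 49.7% GC and 2 CpG dinucleotides, against medians of 52.7% and 7. None of the 3 promoters held a CTCF consensus match, which 2.28% of all promoters held. The Nr2f2 start site used here is that of 1 of its 3 protein-coding transcripts. The others start farther downstream, at chr7:70360593 and chr7:70359921, and no promoter was described for them. Below, the last 180 bases before the start are in lower case and the first 20 bases from it in capitals, on the minus strand.
Nr2f1, chr13:78198854-78199053: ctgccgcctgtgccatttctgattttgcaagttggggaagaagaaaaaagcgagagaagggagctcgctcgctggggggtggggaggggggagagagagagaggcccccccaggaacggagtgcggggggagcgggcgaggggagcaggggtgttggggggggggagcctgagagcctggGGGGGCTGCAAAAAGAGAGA
Nr2f2, chr7:70366727-70366926: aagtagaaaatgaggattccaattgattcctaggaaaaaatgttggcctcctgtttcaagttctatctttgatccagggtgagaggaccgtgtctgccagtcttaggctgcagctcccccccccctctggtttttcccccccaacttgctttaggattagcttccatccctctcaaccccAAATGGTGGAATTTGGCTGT

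Paralogous genes of several families lie around Nr2f1 or Nr2f2, and 6 such pairs were followed. For 4 pairs both genes lay on the chromosomes of Nr2f1 and Nr2f2, and in all 4 the members stood on opposite sides of the receptor gene. Mctp1 lay 1.16 Mb downstream of Nr2f1, while Mctp2 lay 1.71 Mb upstream of Nr2f2. Arrdc3 and Arrdc4, which encode arrestin-domain proteins, lay 2.68 Mb upstream of Nr2f1 and 1.6 Mb downstream of Nr2f2. Lysmd3 and Lysmd4, of the LysM domain family, lay 3.46 Mb upstream and 3.04 Mb downstream. The MADS-box factor genes Mef2c and Mef2a lay 5.3 Mb upstream and 2.98 Mb downstream. In 3 of these 4 pairs, the exception being Lysmd3 and Lysmd4, the members also lay on opposite strands, although both receptor genes were on the minus strand. Rgma, a gene for a guidance molecule, and Chd2, a chromatin remodeller gene, lay 3.01 and 3.06 Mb upstream of Nr2f2, and their partners Rgmb and Chd1 lay on chromosome 17.

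Of the 10 genes of these families on the chromosomes of Nr2f1 and Nr2f2, 8 were touched by a listed loop, against 24.1% of protein-coding genes, and 1, Mctp1, was joined by a loop to its receptor gene. These are not separate counts, since Lysmd4 and Mef2a overlap over 76.2 kb and were touched by the same 2 loops. A longer gene body covers more bins and is more readily touched, and the share of all genes was not matched for length. Mef2c was touched by 3 loops and Lysmd3 by none. Mctp1 was touched by 2 loops and Mctp2 by 1, a loop of 120 kb with 1 anchor over the body of Mctp2 and an FDR of 0.0428. No loop joined Mctp2 to Nr2f2. Arrdc4 was touched by none and spanned by 3, and Arrdc3 was touched by 1.

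The NR2 subfamily, 12 genes with the retinoid X receptors and hepatocyte nuclear factors 4 included, was examined in the same way. All 12 were found in the annotation, and 5 were touched by a loop, against 24.1% of protein-coding genes of all lengths. Nr2f1 and Nr2f2 were the only members with an anchor in the start-site bin, which 7.1% of protein-coding genes had. The longest loop that touched another member was 220 kb, at Rxrg, and the others were 200 kb at Rxra and 180 kb at Hnf4a. Loops spanned the start sites of Nr2e1, Rxra and Rxrg, 2 at each, and of Nr2f2. The other 10 members had a median of 15 loops and 34.5 protein-coding start sites within 2 Mb, from 1 loop at Hnf4g to 27 at Nr2c1. Nr2f6, the closest relative of both genes, lay among 123 other protein-coding start sites on chromosome 8, with 3 loops within 2 Mb and none that touched or spanned it. Hnf4g, with 1 other start site within 2 Mb, was the family member with the fewest, and it too was touched by no loop.

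**Figure D2:**
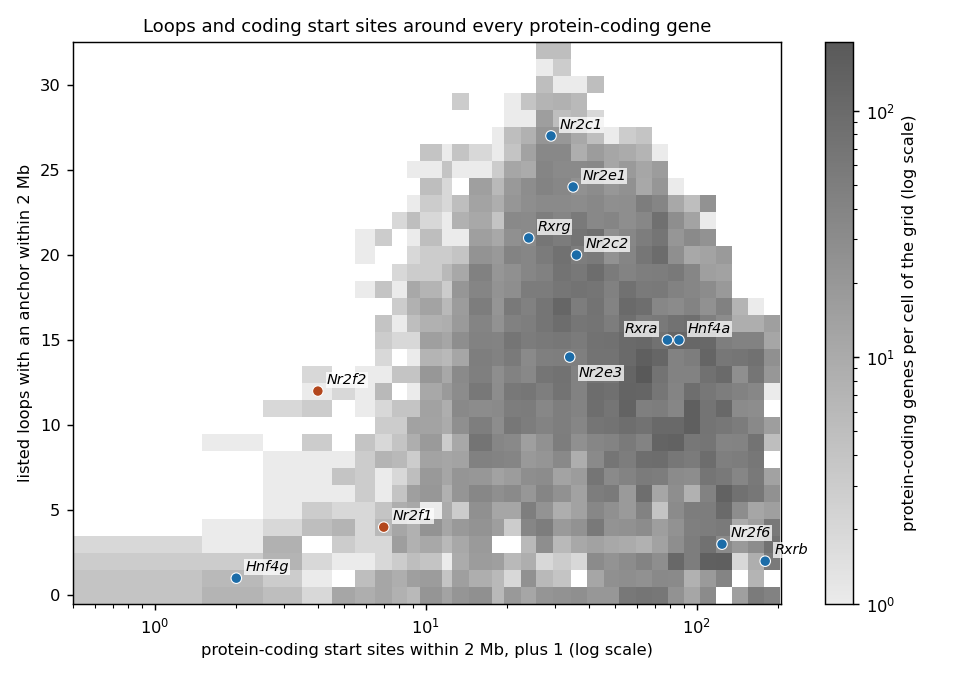
Each protein-coding gene is placed by the number of other protein-coding start sites within 2 Mb, plus 1, on a log axis, and by the number of listed loops with an anchor within 2 Mb; grey shows the number of genes per cell of the grid. Nr2f1, with 6 start sites and 4 loops, and Nr2f2, with 3 and 12, are in orange, and the other 10 NR2 genes in blue.

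Likeness to other genes was measured as the Euclidean distance over 4 percentile ranks, those of loops within 2 Mb, protein-coding start sites within 2 Mb, loops that span the start site and loops with an anchor in its bin. The 3 genes most like Nr2f1 among all protein-coding genes were Tbl1xr1, a corepressor subunit gene, at a distance of 0.437, the zinc finger factor gene Zeb2 at 0.57 and Crbn at 1.58. Each had 4 loops within 2 Mb, 1 of them at the start-site bin. The loop that touched Zeb2 spanned 1330 kb and that at Crbn 1250 kb, lengths that did not enter the measure, while that at Tbl1xr1 spanned 140 kb. The genes most like Nr2f2 were Fam198b and the SOX factor gene Sox11, both at 3.59, and Arl5a at 5.36. Each had 12 loops within 2 Mb, 1 spanning the start site and 1 anchored in its bin. They had 11, 11 and 13 protein-coding start sites within 2 Mb against 3 at Nr2f2, so none of the genes compared came as close to Nr2f2 as the 3 named did to Nr2f1. Sox11 was touched by 2 loops, the longer of 1080 kb, Fam198b by 1 of 920 kb and Arl5a by 1 of 160 kb.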

How the data were processed

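Per the labels and the methods of the study, the authors aligned Micro-C reads to mm10 with BWA-MEM, sorted and deduplicated pairs with pairtools, built contact matrices with juicer_tools and called loops with Mustache on the 4 merged replicates; the submitters' processing notes name BWA, Juicer and mm10. The deposited list at 10 kb gives each loop an FDR (a q-value, below 0.1 throughout) and a detection scale, a score of the caller. No depth or value per replicate was used. Bin starts were converted to 1-based positions. Gene models were GENCODE vM21, sequences RefSeq GRCm38. Rules for loops and motif matches were tested on simulated data. Python 3.11.15, pandas 2.3.3, numpy 2.4.6 and scipy 1.17.1 were used. The protein-coding genes named are Nr2f1, Nr2f2, those at anchors of the loops of both loci, and the nearest neighbours. Also named are the listed paralogues and NR2 genes, and the 3 genes most like Nr2f1 or Nr2f2, leaving out genes within 4 Mb. Members and lists were chosen with earlier results of these data known. No test was made. The ATAC-seq and Cut&Run samples and calls at 5 kb were not analysed here.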

Additional observations from a re-analysis of the deposited data

How the results depend on the processing

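Counts of near, touching, spanning and nested loops and of start sites and gene bodies at anchors were recomputed with an FDR below 0.05 or 0.01, at the smallest scale and with calls within 100 kb merged. Other windows or rules were tried for these, and CTCF matches and loops within 50 kb were recomputed with other mismatch limits or windows only. Of 76 alternative values, 53 stayed within 1.5 times the count, or within the 95% interval of the share, as given in the report. An FDR below 0.01 left 2 loops near Nr2f1, 0 nested pairs and 0% of loops without a gene body there, and 1 loop with no start site; at Nr2f2 it left 0 spanning loops, 3 nested pairs and 7 loops with no start site. An FDR below 0.05 left 0 nested pairs at Nr2f1. Windows of 1 Mb gave 6 loops at Nr2f2, and of 3 Mb 9 and 22 at Nr2f1 and Nr2f2. Widened anchors gave 2 and 4 touching loops, and the outer interval 1 and 2 spanning loops. Disallowing shared anchors left 4 nested pairs at Nr2f2. Gene bodies of every biotype left 0% and 25% of loops without one, and start sites of every biotype 7 loops without one at Nr2f2. CTCF matches were in 0% and 26.3% of bins with no mismatch, and in 75% and 100% with 2. Fewer loops pass a stricter FDR by construction. The direction of change with other windows, anchor widths, intervals, biotypes, shared-anchor rules or mismatch limits is also set by construction. A share under a stricter FDR can move either way, and why it moved was not tested. With 4 loops at Nr2f1, a single call moves each share by a large step. No paired analysis was possible because the list holds calls from pooled libraries only.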
